A study of Urocitellus parryii with 44 samples.

Results

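The enzymes that build fatty acids and put double bonds into them were followed in brown adipose tissue of hibernating ground squirrels. They were chosen by name and no value was used as a filter, though earlier results of these data were known. Every probe with the single gene symbol Fasn, Acaca, Acacb, Acly, Scd1, Scd2, Fads1, Fads2, Me1 or Pgd was taken. This gave 22 of 38400 probes, for 9 of the 11786 gene symbols on the membranes. Fads2 had no probe with a single symbol, and 4 probes that carry the symbols of both Scd1 and Scd2 were left out. The animals were 8 arctic ground squirrels (Urocitellus parryii): 3 were active in summer and sampled in August, and 5 were torpid in winter. Neither group had a genetic change or a treatment named in the labels, which give no strain, age or sex. Season and activity state change together between the groups and cannot be told apart. Their total RNA, labelled with 33P, was read on membranes MA07 and MA08 and on MA10 and MA11, which each carry 9600 spotted mouse cDNA probes. For 3 animals (summer 1, summer 2 and torpid 5) 1 extraction was measured as duplicates, which were averaged, so that each animal counts once.

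New fatty acids are made in the cytosol from acetyl-CoA, which ATP citrate lyase (Acly) cuts from citrate. Acetyl-CoA carboxylase (Acaca, Acacb) turns it into malonyl-CoA, and fatty acid synthase (Fasn) joins these units into palmitate with NADPH, which malic enzyme (Me1) and the pentose phosphate enzyme 6-phosphogluconate dehydrogenase (Pgd) supply. Stearoyl-CoA desaturases (Scd1, Scd2) then form monounsaturated fatty acids, and Fads1 desaturates long polyunsaturated ones. Brown adipose tissue is known both for burning fatty acids to make heat and for making them.

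None of the 22 probes differed between torpor and summer at an adjusted p of 0.05 in limma, where 117 of all 37848 tested probes did (0.309%). At an unadjusted p of 0.05 the count was 3 of 22, for 1 probe each of Acacb, Pgd and Fasn, beside 11.6% of all probes. The 2 groups of animals did not overlap in 1 of 22 member probes, which belongs to Acacb, beside 8.50% of all probes. Each of these shares is near its background, so the counts are no result about these enzymes. The difference, torpor minus summer on the log2 scale, was positive in 13 probes and negative in 9. Its median was 0.13, with a range of -1.19 to 1.03, beside a median of 0.0001 over all tested probes. The 95% interval of the difference included 0 in 19 of the 22 probes. In 12 probes it lay wholly between -1 and 1, while in 7 it included 1 and in 4 it included -1, so a difference of that size lay within the error of those probes. In whole tissue, fewer cells of a type and less RNA per cell cannot be told apart, and this holds for every value below.

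**Figure D1:**
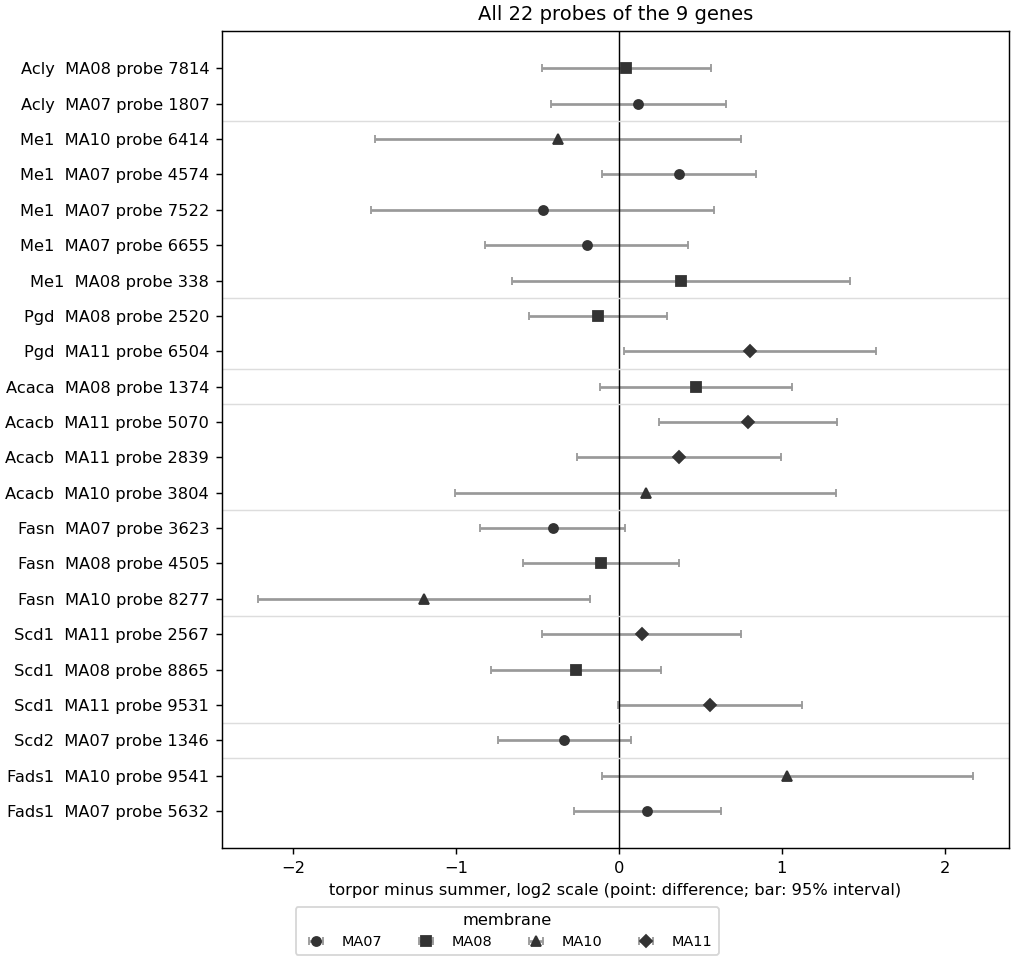
Torpor minus summer for the 22 member probes on the log2 scale, with point shapes by membrane and bars for the 95% interval from limma (3 summer active and 5 torpid animals, fewer torpid animals for a Fasn and a Me1 probe). The bars of 19 probes cross 0.

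The probes are mouse sequences, so a symbol names the mouse gene, and 8 of the 10 symbols were found in the RefSeq gene table of the squirrel (assembly mUroPar1.hap1), all but Scd1 and Scd2. The deposited intensities are relative to the median of each column, so that 0 on the log2 scale is the middle of a membrane. Of the markers of brown adipocytes, 5 of 9 were measured, and Ucp1, the protein that makes brown fat thermogenic, had no single-symbol probe, nor had Adipoq, Fabp4 or Plin. No marker of 9 cell types, 43 measured genes in all, passed the adjusted threshold. The summed linear level of the brown adipocyte markers ran from 9.79 to 16.3 in summer and from 6.76 to 10.7 in torpor. Of these markers Ppargc1a gave -0.76, Elovl3 -0.70, Dio2 -0.58, Cidea -0.31 and Prdm16 0.56. The sums of the markers of any adipocyte (4 of 9 measured) ran from 6.41 to 10.3 in summer and from 8.11 to 9.52 in torpor. White adipocyte markers (6 of 7 measured) ran from 60.8 to 80.2 in summer and from 21.8 to 42.2 in torpor without overlap. Psat1 and Agt weigh most in this linear sum in summer, with log2 means of 5.26 and 4.33, the highest of that list. In that list Agt (-2.0, adjusted p = 0.055) and Psat1 (-1.58, adjusted p = 0.15) did not overlap between the groups, though each gene's 3 probes reached up to 0.013 and 0.11. Hoxc8 gave 0.67, and Lep, Hoxc9 and Nnat gave -0.09, -0.15 and -0.29. The part of these marker levels in the results below was not tested.

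The precursor and NADPH suppliers come first. The brightest probe of a gene is here the one with the highest percentile of mean signal on its membrane, and for Acly it was on MA08 (probe 7814, percentile 95.8). Its log2 values were 2.76, 2.42 and 2.86 in summer animals 1 to 3 and 3.11, 2.41, 2.40, 3.04 and 2.69 in torpid animals 1 to 5. The groups overlapped almost completely, with means of 2.68 ± 0.23 (SD, n = 3) and 2.73 ± 0.34 (SD, n = 5). The difference was 0.05 ± 0.24 (SE), with an interval of -0.47 to 0.56, and its sign turned with quantile normalization (-0.15) and with cyclic loess (-0.26). It also turned without summer animal 2 (-0.084), torpid animal 1 (-0.048) or torpid animal 4 (-0.031). The other Acly probe, on MA07, gave 0.12 ± 0.24 (SE).

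Me1 had 5 probes, the most of the 9 genes, at percentiles from 6.88 to 38.2 of their membranes. The highest of these, probe 6414 on MA10, read -1.08, -0.87 and 0.38 in summer and -2.56, -0.09, -0.14, -1.02 and -0.66 in torpor. Torpid animal 1 was the lowest and summer animal 3 the highest, and the groups overlapped. The difference was -0.37 ± 0.53 (SE), adjusted p = 0.83 (limma), and its sign turned without summer animal 3 (0.081) or torpid animal 1 (0.043). The other Me1 probes gave 0.37, -0.47 and -0.20 on MA07 and 0.38 on MA08. The -0.47 (probe 7522) was -0.067 without torpid animal 2. The MA08 probe had values in only 3 of the 5 torpid animals and gave -0.10 without torpid animal 2. Me1 probes thus had both signs, and the mean over the 4 probes with values in all animals was -0.17 ± 0.22 (SE), or 0.0021 without summer animal 3.

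Pgd was measured at percentiles 86.8 on MA08 and 84.9 on MA11, and the 2 probes did not give the same picture. On MA08 (probe 2520) the summer animals read 1.54, 1.59 and 1.21, and the torpid animals 1.35, 1.49, 1.11, 1.27 and 1.38. These groups overlapped, and the difference was -0.13 ± 0.19 (SE) with an interval of -0.55 to 0.30. On MA11 (probe 6504) the summer animals read 1.22, 1.98 and 0.48, and the torpid animals 2.84, 1.83, 1.67, 1.92 and 1.90. Summer animal 2 lay above 4 of the 5 torpid animals, while torpid animal 1 lay far above every other. The difference was 0.80 ± 0.36 (SE), with an unadjusted p of 0.042 and an adjusted p of 0.41 in limma. Without summer animal 3 it was 0.43, without torpid animal 1 it was 0.60 and without summer animal 2 it was 1.18, and with cyclic loess it was 0.45.

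**Figure D2:**
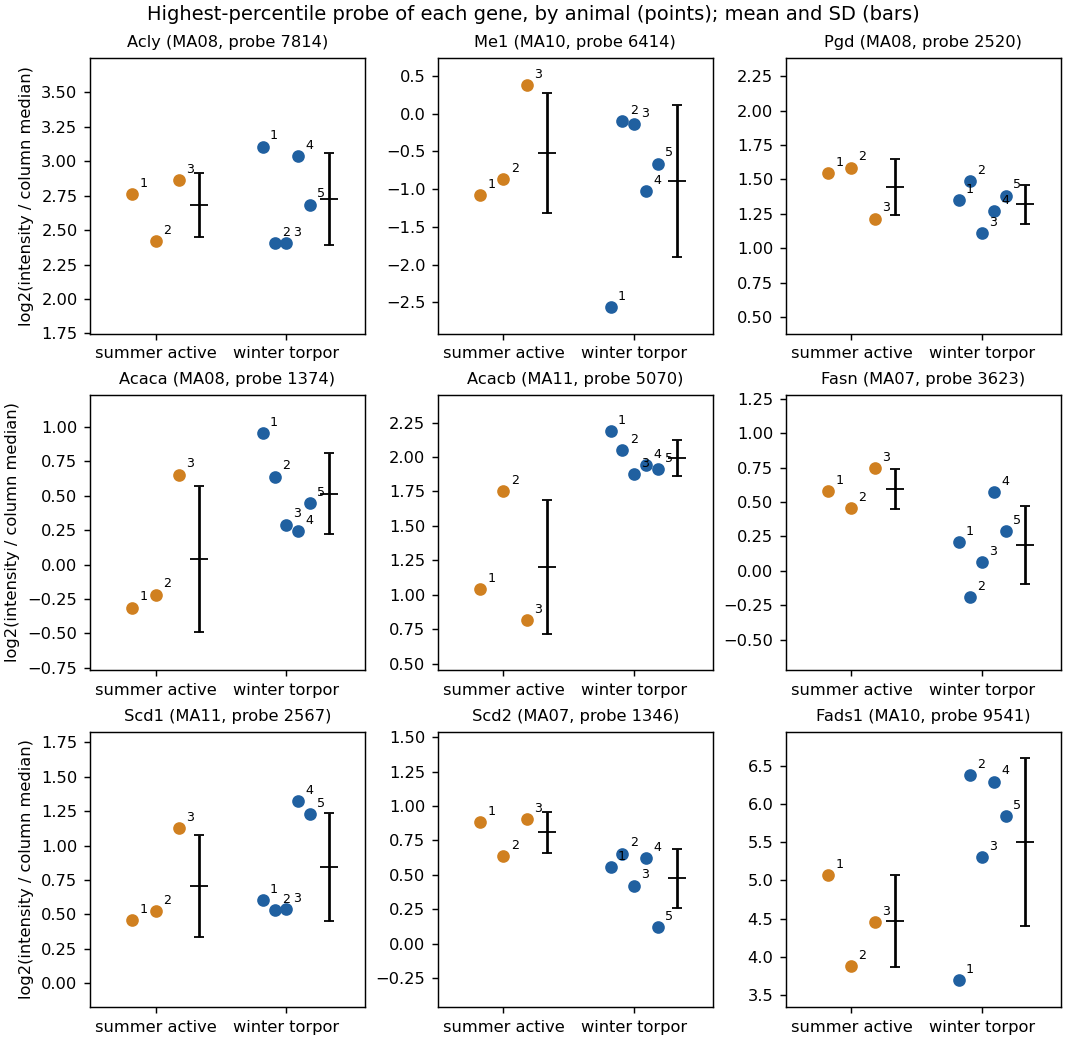
Log2 intensity of each animal for the brightest probe of each of the 9 genes, in summer active (n = 3) and torpid (n = 5) animals; the vertical axes differ between panels. The groups are apart only for Acacb, where the torpid animals read 1.88 to 2.19 and the summer animals 0.81 to 1.75.

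The carboxylases make malonyl-CoA, and their product also blocks fatty acid entry into mitochondria. Acaca, the cytosolic form, had 1 probe (1374 on MA08). Its summer animals read -0.31, -0.22 and 0.65 and its torpid animals 0.96, 0.64, 0.29, 0.25 and 0.45. Summer animal 3 lay above 4 of the torpid animals, so the groups overlapped, and the difference was 0.48 ± 0.27 (SE), adjusted p = 0.53. Without that animal it was 0.78.

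Acacb, the form bound to the outer mitochondrial membrane, gave the only member probe whose groups did not overlap. On MA11 (probe 5070, percentile 85.4) the summer animals read 1.04, 1.75 and 0.81, and the torpid animals 2.19, 2.05, 1.88, 1.94 and 1.91. Every torpid animal lay above every summer animal, and the torpid animals were closer together, with an SD of 0.13 (n = 5) beside 0.49 (n = 3). The difference was 0.79 ± 0.25 (SE), or 1.73-fold, with an interval of 0.24 to 1.34. Its unadjusted p was 0.0083 and its adjusted p 0.25, the lowest among the members and still above the threshold. Leaving out each animal moved the difference between 0.60 (without summer animal 3) and 1.07 (without summer animal 2), with no adjusted p under 0.083. With cyclic loess it was 0.46, and over all alternatives the adjusted p ran from 0.083 to 0.52. The other Acacb probes gave 0.37 ± 0.29 (SE) on MA11 and 0.16 ± 0.56 (SE) on MA10, both with groups that overlapped. The MA10 value turned negative without summer animal 2 (-0.43) or torpid animal 1 (-0.091). All 3 probes were positive, and their mean gave 0.44 ± 0.26 (SE), adjusted p = 0.53 over all genes.

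Fasn, the synthase itself, had 3 probes with negative differences. The brightest, probe 3623 on MA07, read 0.58, 0.46 and 0.75 in summer and 0.21, -0.19, 0.06, 0.57 and 0.29 in torpor. Torpid animal 4 lay within the summer range, and the other torpid animals lay below it. The difference was -0.41 ± 0.20 (SE), with an interval of -0.85 to 0.04 and an adjusted p of 0.47 in limma. On MA10 (probe 8277) the summer animals read -0.49, -0.75 and 0.39 and the 4 torpid animals with a value read -1.60, -2.48, -0.57 and -1.26. Torpid animal 2 was empty there. Torpid animal 4 again overlapped with summer, and the difference was -1.19 ± 0.48 (SE), unadjusted p = 0.025, adjusted p = 0.35. With only the first duplicate of the split RNAs it was -1.63 and with only the second -0.76. The MA08 probe gave -0.11 ± 0.22 (SE), and without summer animal 2 it gave 0.069.

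Among the desaturases, Scd1 had 3 probes, of which probe 2567 on MA11 and probe 8865 on MA08 carry the same clone. The first read 0.46, 0.53 and 1.13 in summer and 0.61, 0.53, 0.54, 1.32 and 1.23 in torpor, a difference of 0.14 ± 0.28 (SE) with groups that overlapped. On MA08 the same clone gave -0.26 ± 0.24 (SE), so the 2 copies had opposite signs, with intervals that both included 0. The third probe (9531 on MA11) read -0.60, -0.05 and 0.02 in summer and 0.54, -0.08, 0.28, 0.76 and 0.25 in torpor. Only torpid animal 2 overlapped with summer, and the difference was 0.56 ± 0.26 (SE), unadjusted p = 0.053. Scd2 had 1 probe (1346 on MA07), which read 0.88, 0.64 and 0.91 in summer and 0.55, 0.65, 0.42, 0.62 and 0.12 in torpor. Torpid animal 2 lay just above the lowest summer animal, and the difference was -0.33 ± 0.18 (SE), adjusted p = 0.52. The 2 desaturases are close relatives in the mouse, and neither symbol was found in the squirrel gene table. Which squirrel RNA these probes bound, and whether it was the same for both symbols, was not tested.

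Fads1 gave the largest positive difference of the 22 probes. On MA10 (probe 9541, percentile 98.0) its log2 values were 5.07, 3.87 and 4.46 in summer and 3.69, 6.38, 5.30, 6.30 and 5.84 in torpor. Torpid animal 1 was the lowest of all 8, and the other torpid animals were the highest. The difference was 1.03 ± 0.54 (SE), with an interval of -0.10 to 2.17, adjusted p = 0.48, and without torpid animal 1 it was 1.49. The probes 10 and 20 index positions on either side of it had signal percentiles of 90.9 to 97.6 and differences of -0.65 to -0.19. Whether these lie beside it on the membrane is not given in the sources used here, and the part of their signal in the Fads1 value was not tested. At the same steps, the probes around Acacb 5070 gave 0.26, 0.59, 0.72 and 0.32, all of the sign of that probe. Those around Pgd 6504 gave 0.19, 0.19, 0.60 and 0.38, and those around Fasn 8277 ran from -0.43 to 0.26. Around the other MA11 members they ran from -0.63 to 1.08 (Acacb 2839), -0.37 to 0.50 (Scd1 2567) and 0.06 to 0.38 (Scd1 9531). The part of neighbouring probes in the Acacb, Pgd, Fasn and Scd1 values was not tested either. A second Fads1 probe, on MA07, was among the dimmest members (percentile 8.81) and gave 0.18 ± 0.20 (SE).

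Averaged over their probes with values in all animals, 6 of the 9 genes were positive, beside 51.2% of all genes. The other 3 (Fasn, Me1 and Scd2) were negative, and the median of the 9 was 0.15. None passed the adjusted threshold in limma (20 of 11214 genes did, 0.178%, a count that ran from 0 without torpid animal 2 to 93 without summer animal 1) and none had an unadjusted p of 0.05 (12.2% of all genes did). The groups overlapped for each of the 9 means, beside 8.13% of all genes without overlap. Fads1 had the largest mean difference, 0.60 ± 0.28 (SE), adjusted p = 0.42, and Fasn gave -0.26 ± 0.16 (SE), adjusted p = 0.56. Without torpid animal 2 the Fasn mean was -0.52, adjusted p = 0.40, since its MA10 probe then has a value in every animal and enters the mean. Of the 7 genes with several probes, 3 (Me1, Pgd and Scd1) had probes of both signs. By membrane, all 5 probes on MA11 were positive (0.14 to 0.80), where 52.3% of all MA11 probes were. On MA07 3 of 7 were positive, on MA08 3 of 6 and on MA10 2 of 4. The shares over all probes of these membranes were 47.3%, 51.0% and 49.5%.

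The split RNAs show how far 2 measurements of 1 animal lie apart. The median gap between duplicates over the member probes was 0.27 in summer animal 1, 0.43 in summer animal 2 and 0.20 in torpid animal 5, beside 0.44, 0.44 and 0.32 over all tested probes. In 4 of the 22 probes the difference between the groups was larger than every duplicate gap. The same count was not made over all tested probes, so it cannot be called many or few. A gap lies between single measurements and the difference between means of several animals, so the count does not measure the error of a difference. For the Acacb probe 5070 the widest gap was 0.20, and for the Pgd probe 6504 it was 0.12. For the Fads1 probe 9541 it was 0.76, and for the Fasn probe 8277 it was 1.17, nearly the size of the difference. For the other 18 probes at least 1 pair of duplicates lay as far apart as the group means or farther.

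**Figure D3:**
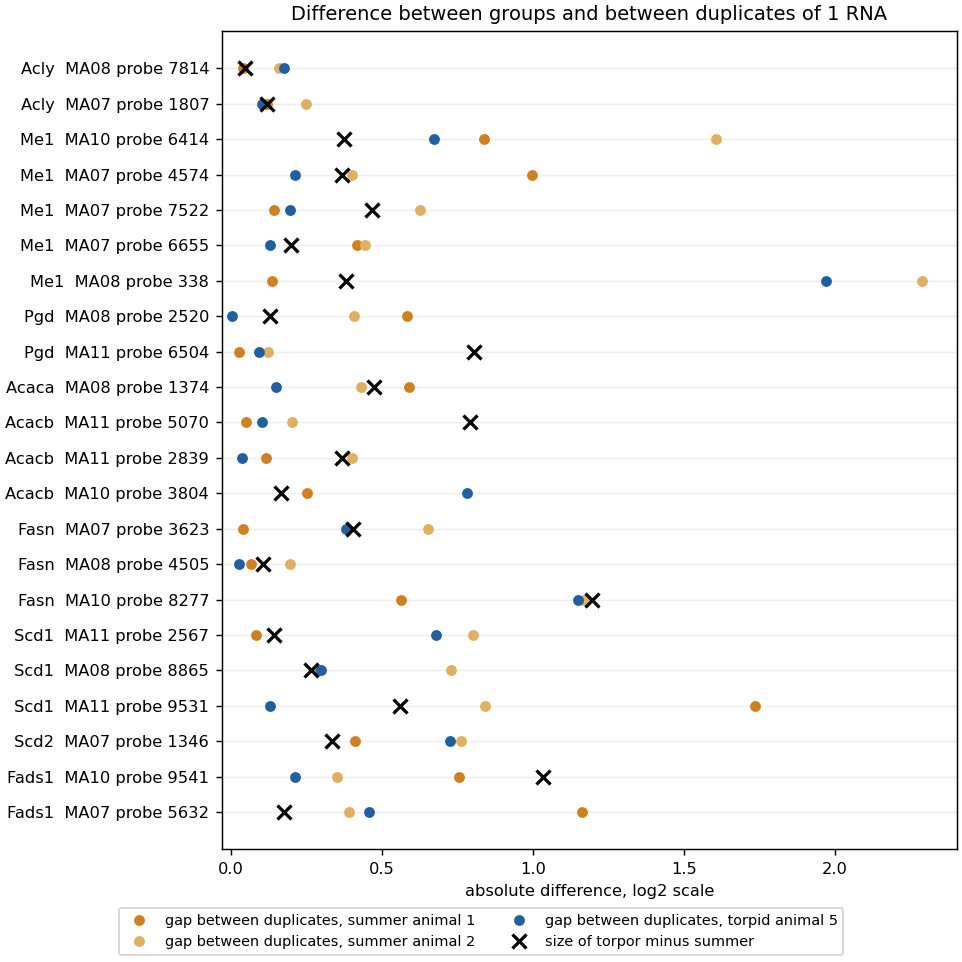
For each member probe, the gap between the duplicates of 3 split RNAs (dots) and the size of torpor minus summer (crosses), both on the log2 scale. The cross lies to the right of every dot in 4 probes, of Pgd, Acacb, Fasn and Fads1.

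The genes whose pattern over the 8 animals was most like each member were found by the root mean square distance of centred log2 values on the same membrane. They were Padi2 (0.13) and Mapkapk5 (0.15) for Acacb, and Ier5 (0.11) and Selenoi (0.12) for Fasn. For Pgd they were Tppp (0.08) and Ide (0.10), for Scd1 Hspd1 (0.15) and Usp34 (0.17), and for Acaca Pygm (0.13) and Fnta (0.15). Nearest to Acly were Zfp3 (0.11) and Cdc42bpa (0.13), to Me1 Mcur1 (0.27) and Fndc4 (0.29), and to Scd2 Srsf3 (0.08) and Wwp2 (0.09). Fads1, which varied most over the animals, had Satb1 (0.23) and Firre (0.37) nearest to it. With 5033 to 6523 probes to choose from and 8 animals, such distances describe these samples only.

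Around these enzymes, 60 of 85 genes in 7 lists of the pathway were measured, each by its brightest probe. In limma 2 of the 60 passed the adjusted threshold, both higher in torpor, beside 0.342% of 11711 genes read in the same way. The groups did not overlap in 6 of 60, beside 8.97% of all genes. Cyb5a, the cytochrome b5 that brings electrons to the desaturases, rose by 1.29 ± 0.21 (SE), or 2.45-fold, adjusted p = 0.044. Its other 3 probes gave 1.0, 1.25 and 0.27, with adjusted p of 0.18, 0.22 and 0.85. Insig1, which holds the SREBP activation complex in the endoplasmic reticulum, rose by 1.73 ± 0.31 (SE), adjusted p = 0.0495, while its second probe gave 0.28. Each passed in only 4 of 18 alternatives. Of the 8 fits that left out an animal, Cyb5a passed in 1 (without summer animal 1) and Insig1 in 0. With all animals kept, both missed the threshold with cyclic loess (adjusted p of 0.079 and 0.083), the second duplicate only (0.092 and 0.089), a floor (0.057 and 0.065) and a variance per group (0.078 and 0.083). Quantile normalization gave 0.041 for Cyb5a and 0.055 for Insig1. The sizes moved less, from 1.06 to 1.44 for Cyb5a and from 1.5 to 1.9 for Insig1 over the 18 alternatives.

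No gene of acetyl-CoA and citrate supply (5 measured), NADPH supply (8), malonyl-CoA handling (9), elongation (9) or mitochondrial fatty acid synthesis (6) passed. Their median differences were 0.28, 0.11, 0.065, 0.22 and 0.03, beside 0.03 over all genes. For the other desaturases and their electron carriers (7 measured) the median was 0.33, and for the regulators it was -0.10. Among the 16 regulators measured, the lipogenic factor Srebf1 gave -0.0053, Mlxipl, the carbohydrate-responsive factor, -0.06, and Thrsp, a lipogenic thyroid hormone target, -0.41. The lowest of the 3 Srebf1 probes gave -0.49 and the other Mlxipl probe -0.60, while Thrsp had 1 probe. The groups did not overlap for Usf1 (0.58), Srebf2 (-0.32) and Scap (-0.47), the escort of the SREBP factors, none of which passed. For Usf1 the lowest torpid animal read 1.193 and the highest summer animal 1.190, and its other probe gave 0.07. For Srebf2 the highest torpid animal read 0.22 and the lowest summer animal 0.27. Scap had 1 probe, at percentile 17.3, with -1.375 in the highest torpid and -1.356 in the lowest summer animal. The acetate enzyme Acss2 gave -0.12 and the citrate carrier Slc25a1 -0.24, while Cpt1a, which malonyl-CoA inhibits, gave 0.065. Their other probes gave -0.18, 0.32 and 0.08. The elongases gave 0.06 for Elovl5, 0.37 for Elovl6, which extends palmitate, and -0.70 ± 0.44 (SE) for Elovl3, a brown fat elongase, adjusted p = 0.57. The 3 Elovl5 probes ran from -0.14 to 0.55 and the 6 Elovl6 probes from -0.19 to 0.73. Mecr, of the mitochondrial route, gave 1.79 ± 0.56 (SE), adjusted p = 0.25, without overlap. On that probe torpid animal 4 read 6.13 and the other torpid animals 3.21 to 3.73. The other Mecr probe gave 0.09. Ndufab1, the mitochondrial acyl carrier protein, gave -0.21. G6pdx, the first enzyme of the pentose phosphate pathway, and Cpt1b had no single-symbol probe.

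**Figure D4:**
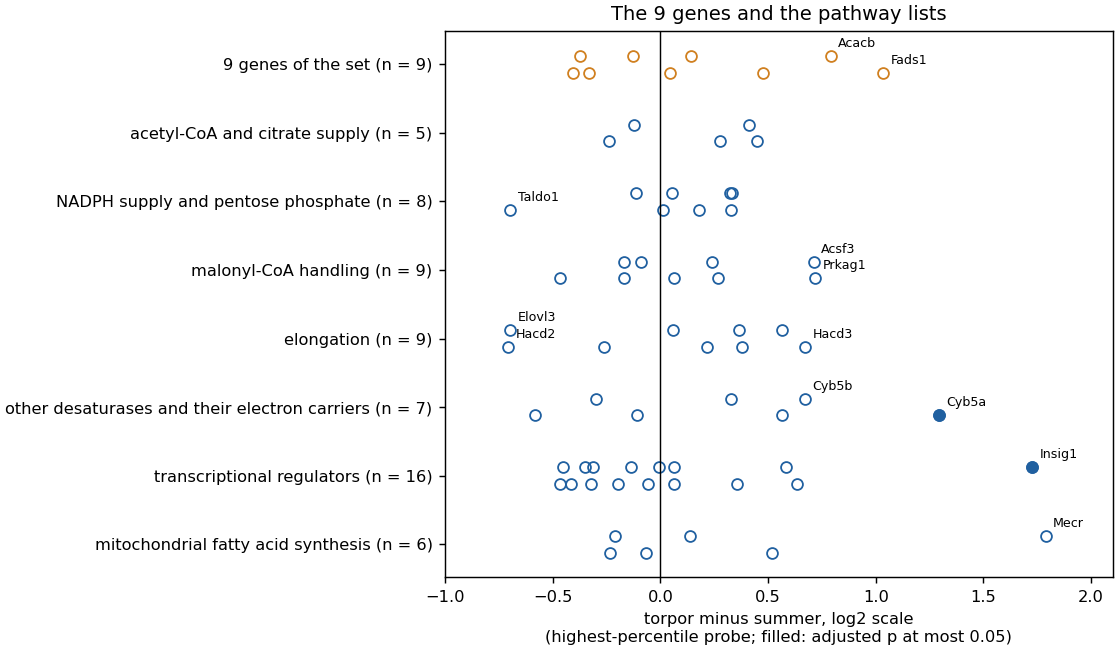
Torpor minus summer on the log2 scale for the brightest probe of each of the 9 genes (orange) and of the genes of 7 pathway lists (blue), with filled points for an adjusted p of at most 0.05. The filled points are Cyb5a and Insig1, and Mecr lies farthest to the right without passing.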

How the data were processed

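RNA of 8 squirrels was measured on 4 membranes, 11 columns each. The deposited values are linear intensities, 1 per spot, scaled so that every column has a median of 1 with empty cells ranked lowest, as the values themselves show. How spots were quantified, what was done about background, why some cells hold no value and which genome build applies is not given in the sources used here. Cells without a value (3.45% of all, 1.65% of the members') were treated as missing. Values were taken to log2, and duplicates of a split RNA were averaged. Each membrane was fitted with limma 3.58.1 in R 4.3.3 (lmFit, eBayes, two-sided), if 2 or more animals of each group had a value, with Benjamini-Hochberg adjustment over all 4 membranes and a threshold of 0.05. A gene mean used its probes with values in all animals and was fitted over all genes. The fit was tested on simulated data. Symbols came from the platform annotation (25070 probes with 1 symbol, 941 with several, 12389 with none). Values in each animal are given for each gene's probe of highest mean signal percentile ("brightest") and for probes without overlap. Those of Fasn 8277, Pgd 6504 and Scd1 9531, and the probes around Fads1 9541 and around other member probes, were added after their values were seen. Members and gene lists were chosen with earlier results of these data known. The number of animals, 8 squirrels in all, limits the precision.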

Additional observations from a re-analysis of the deposited data

Results flagged for a closer look

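In groups of 4 to 10 animals, the highest and lowest values were checked for a gap to the next animal that is wide for the group's range (Dixon's test at 95%). Of 30 groups of torpid animals checked, over the member probes and the gene means, 2 had such a gap, and chance gives it in about 5% of groups. Torpid animal 1 read 2.84 on the Pgd probe 6504 of MA11, with a gap of 0.79 of the group's range. Torpid animal 2 had a Fasn mean over probes of -0.30, the lowest of the 5, also with a gap of 0.79 of the range. The Fasn mean covers the probes on MA07 and MA08, since the MA10 probe was empty in that animal, and without the animal the mean, then over all 3 probes, was -0.52.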

How the results depend on the processing

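No member probe and no gene mean passed the adjusted threshold under any alternative run, while the count over all probes, 117, ran from 17 (without torpid animal 2) to 347 (without summer animal 1), and was 138 with quantile normalization, 63 with cyclic loess, 38 with the second duplicate only and 238 for probes of percentile 25 and above. The count over gene means, 20, was 7 with cyclic loess. The sign held under all 18 alternatives in 14 of 22 probes and under all 15 in 6 of 9 gene means. Signs turned as follows, and the cause was not tested. With the first duplicate only, Acacb 3804 gave -0.42, Acly 7814 -0.0045 and Fads1 5632 -0.038, and with the second only, Me1 338 gave -0.35. With quantile normalization Acly 7814 gave -0.15 and the Acly mean -0.018, and with cyclic loess -0.26 and -0.063. With a floor at the 10th percentile, Fads1 5632 gave -0.083 and Me1 338 -0.024. The median over Me1 probes gave 0.045. The labels number the animals within each group and name no pairing between groups. Deviations from the group mean in same-numbered animals correlated at -0.063 to 0.052, which does not settle whether the numbers pair them. A replicate block on the numbers gave 32 calls over all probes and 0 over gene means. It gave adjusted p of 0.22 for Cyb5a and 0.19 for Insig1, and differences of Acly 1807 -0.069, Acly 7814 -0.043, Scd1 2567 -0.14, the Acly mean -0.056 and the Scd1 mean -0.045. Leaving out 1 animal moved Acacb 3804 from -0.43 to 0.87, Acly 7814 from -0.084 to 0.14, Fasn 4505 from -0.24 to 0.069, Me1 338 from -0.10 to 0.77 and Me1 6414 from -0.65 to 0.081. It moved the Acly mean from -0.0083 to 0.20, the Me1 mean from -0.29 to 0.0021 and the Scd1 mean from -0.031 to 0.30. Values on MA10 were the least precise, with a median SE of 0.43 over its probes beside 0.23 to 0.28 on the others.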

Other observations

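Transketolase (Tkt), a pentose phosphate enzyme, gave 0.05 on its brightest probe, on MA08, and 0.02 on MA07. On MA10, 3 Tkt probes spaced by 10 index positions gave -1.12, -1.42 and -1.52, without overlap of the groups and with adjusted p of 0.29, 0.19 and 0.11 in limma. Over all tested probes, 8.50% had groups without overlap. Whether probes spaced in this way lie side by side on the membrane is not given in the sources used here. Another MA10 probe (4796), with values in 4 torpid animals, gave -0.34 with groups that overlapped. Idh1, also counted under NADPH supply, had 5 probes with differences from -1.75 to 1.01. The probes in this paragraph were chosen after their values were seen.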
